A study of Mus musculus with 2 samples.

Results

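The VEGF ligand genes Vegfa, Vegfb, Vegfc and Pgf, the receptor tyrosine kinase genes Flt1 (VEGFR1), Kdr (VEGFR2) and Flt4 (VEGFR3), and the co-receptor genes Nrp1 and Nrp2 were followed through single cells of injured mouse spinal cord. They were taken by symbol, and all 9 were among the 31053 genes of the deposited matrices. The cord was taken 5 days after injury, and 1 library was from HDAC3 inhibitor-treated tissue and 1 from vehicle-treated tissue. The labels name no compound, and give no strain, sex or age of the mice, no form of injury and no number of animals. After filtering, 2940 cells with 37533772 UMIs (unique molecular identifiers, a count of captured mRNA molecules) remained in the HDAC3 inhibitor library and 2138 cells with 28552982 UMIs in the vehicle library, with medians of 9696.5 and 10179 UMIs per cell. Each group is 1 library, so no test was possible, no p-value is given, and differences are between libraries, not conditions.

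VEGF ligands are secreted proteins that act mainly on endothelial cells. VEGF-A signals through KDR, the main driver of endothelial growth and permeability, while FLT1 binds VEGF-A, VEGF-B and PlGF and acts in large part as a decoy. VEGF-C acts on FLT4 and, once processed, on KDR, and the neuropilins NRP1 and NRP2 hold VEGF ligands beside these receptors and also bind class 3 semaphorins. In injured nervous tissue the family is known for its part in vessel regrowth and barrier leakage.

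Levels are given as CPM, a gene's share of all UMIs of a class scaled to a fixed total, with exact Poisson intervals, shares with exact Clopper-Pearson intervals, and ratios with exact conditional binomial intervals, all at 95%. These intervals cover counting error only. The kit reads the 3' ends of transcripts, so membrane and soluble forms of Flt1 and the splice forms of Vegfa were not told apart, and levels of different genes are not compared.

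Cells were named from marker lists that held none of the 9 genes, and each name ends in "-like" because it rests on markers alone. The 16 named classes were endothelial-like cells (417 in the HDAC3 inhibitor library, against 310 in the vehicle library), pericyte-like (97 and 54), smooth muscle-like (36 and 29), fibroblast-like (58 and 27), astrocyte-like (30 and 13), ependymal-like (185 and 72), oligodendrocyte-like (373 and 193), oligodendrocyte progenitor-like (42 and 63), Schwann-like (159 and 217), microglia-like (370 and 383), macrophage-like (484 and 238), border-associated macrophage-like (149 and 56), monocyte-like (57 and 47), neutrophil-like (166 and 200), T/NK cell-like (51 and 14) and B cell-like cells (23 and 39). Of 25 clusters 3 stayed unnamed. One of these held haemoglobin and endothelial genes together (101 and 45 cells, medians of 17244 and 18365 UMIs) and is called the haemoglobin-bearing cluster. All 12 endothelial markers were found in it, at a summed 15356 CPM in the HDAC3 inhibitor library and 15060 CPM in the vehicle library, against 20568 and 22472 CPM in endothelial-like cells. How these genes came together in 1 barcode was not tested. Of the kept cells, 4 barcode sequences occurred in both libraries.

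Gene positions are those of build mm10. The 250 bases before the start of Flt1 and Kdr, which had a UMI in most endothelial-like cells, are shown because ETS family factors, which bind a GGAA core, are known regulators of endothelial genes. The sequences are from RefSeq (GRCm38.p6, both on the minus strand, chr5:147726012-147726261 and chr5:75978456-75978705), written 5' to 3' on the gene's strand with GGAA, or TTCC for the other strand, in capitals.
Flt1: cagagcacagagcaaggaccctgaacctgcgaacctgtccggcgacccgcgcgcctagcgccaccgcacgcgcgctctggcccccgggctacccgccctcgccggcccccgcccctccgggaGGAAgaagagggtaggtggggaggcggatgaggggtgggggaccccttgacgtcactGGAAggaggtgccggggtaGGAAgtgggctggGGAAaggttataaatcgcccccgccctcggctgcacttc
Kdr: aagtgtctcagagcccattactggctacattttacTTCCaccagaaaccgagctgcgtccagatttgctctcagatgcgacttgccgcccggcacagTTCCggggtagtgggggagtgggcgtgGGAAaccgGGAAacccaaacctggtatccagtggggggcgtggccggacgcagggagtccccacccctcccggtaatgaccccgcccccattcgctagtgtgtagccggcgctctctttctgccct
Each window held 4 matches, and 33.4% of all 32851 promoter windows in the table held at least 4. The Flt4 window held 2 matches, which 76.8% of windows reached. A match is a run of letters and says nothing of binding.

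The cells that held the ligand transcripts differed between ligands, but macrophage-like cells held the largest share of both Vegfa and Vegfb UMIs. Vegfa (chr17:46016993-46032369, minus strand), which encodes the main angiogenic ligand, was found mostly in macrophage-like cells, a class led by Gpnmb, Atp6v0d2 and Fabp4. Macrophage-like cells held 81.2% of all Vegfa UMIs in the HDAC3 inhibitor library (79.6 to 82.8%) and 82.9% in the vehicle library (81.0 to 84.8%), while making up 16.5% and 11.1% of the cells. Their part of the UMIs of all genes was larger than their part of the cells. It was 12205876 of 37533772 UMIs in the HDAC3 inhibitor library and 7086451 of 28552982 in the vehicle library. The 5 myeloid classes (microglia-, macrophage-, border-associated macrophage-, monocyte- and neutrophil-like) together held 89.0% and 89.99%. Such shares depend on which cells were recovered, which was not tested. Only 30 and 13 astrocyte-like cells were kept, and none of the 16 named classes was neuronal.

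**Figure D1:**
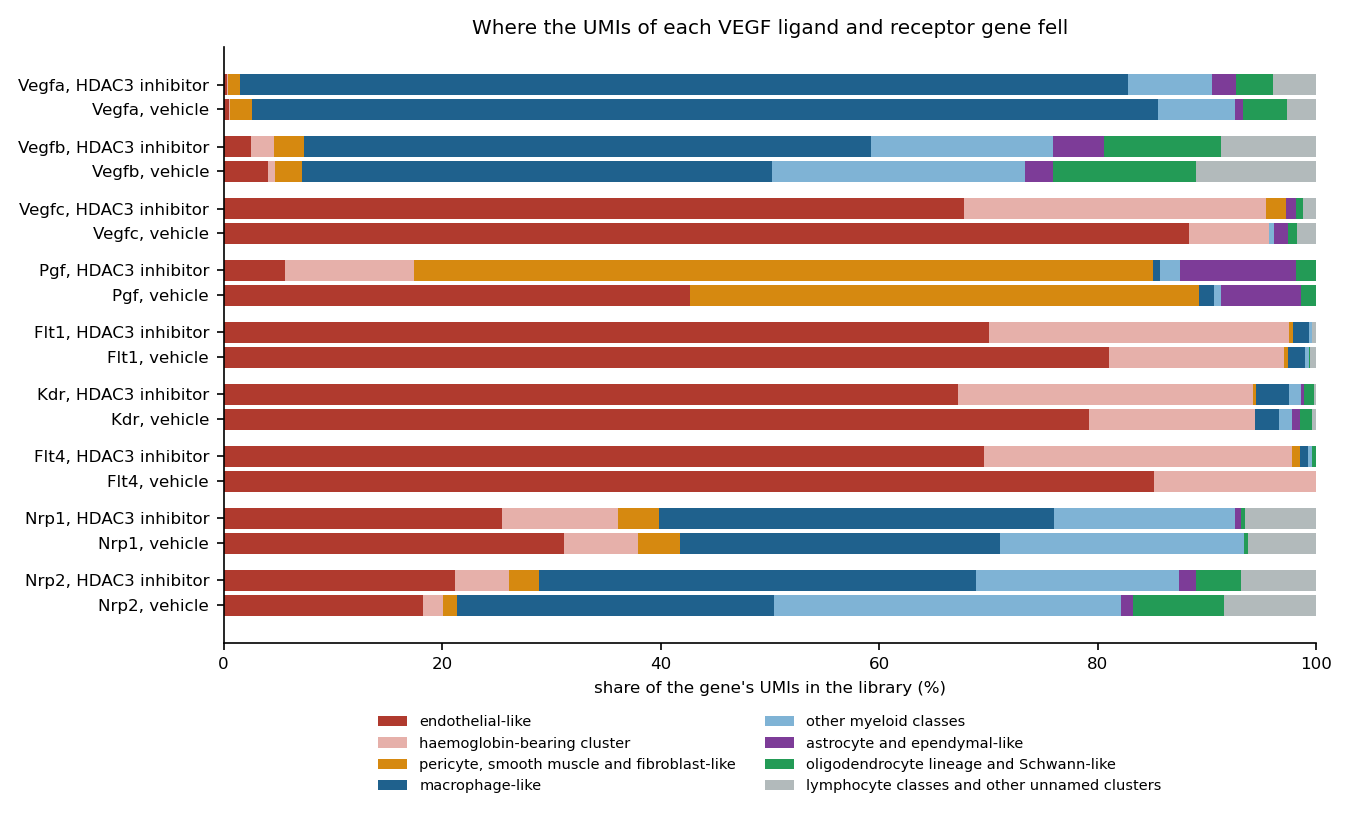
Stacked bars give the share of each gene's UMIs (percent of the library's total for that gene, x axis) by group of cell classes, with the HDAC3 inhibitor library above the vehicle library for each gene. Vegfa lies mostly in macrophage-like cells, Pgf mostly in mural, fibroblast-like and endothelial-like cells, and Vegfc, Flt1, Kdr and Flt4 in endothelial-like cells and the haemoglobin-bearing cluster.

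The level of Vegfa in macrophage-like cells was 152 CPM (145 to 159) in the HDAC3 inhibitor library and 186 CPM (176 to 196) in the vehicle library. Per cell it ranged over 0 to 27 UMIs with a median of 2 in the HDAC3 inhibitor library, and over 0 to 29 UMIs with a median of 4 in the vehicle library. A Vegfa UMI was found in 78.7% and 81.1% of macrophage-like cells, whose median depths were 24176.5 and 28260.5 UMIs. In B cell-like cells, taken as cells that should lack the gene, it was found in 0 of 23 cells (upper limit 14.8%) and in 5.13% of 39 cells, at medians of 3983 and 3974 UMIs. With each cell thinned to 2000 UMIs, which left out 1 and 0 macrophage-like cells, the shares were 25.1% and 30.7% in macrophage-like cells and 0% and 2.70% in B cell-like cells. The macrophage-like signal therefore lay above this background at equal depth.

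Astrocyte-like cells had the highest Vegfa levels per class, 216 CPM (156 to 293) in the HDAC3 inhibitor library and 190 CPM (95.1 to 341) in the vehicle library, but from only 42 and 11 UMIs in 30 and 13 cells. Of the 11 UMIs in the vehicle library 1 astrocyte-like cell held 9, and the interval spans the macrophage-like level. Fibroblast-like cells (28.3 and 74.5 CPM), border-associated macrophage-like cells (55.7 and 44.8 CPM), oligodendrocyte progenitor-like cells (30.7 and 48.9 CPM) and monocyte-like cells (42.9 and 25.9 CPM) followed, and the values of neighbours in this order overlapped between the libraries. Microglia-like cells had 8.89 and 8.21 CPM and endothelial-like cells 1.76 and 2.17 CPM, so neither class held much of the Vegfa counted.

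Vegfb (chr19:6982473-6987651, minus strand), whose product binds FLT1 and NRP1, was spread over many classes. Among the named classes its mean over the libraries was highest in macrophage-like cells, at 95.9 CPM in the HDAC3 inhibitor library and 96.8 CPM in the vehicle library. Ependymal-like (75.9 and 74.1 CPM), astrocyte-like (97.9 and 51.9 CPM), microglia-like (67.6 and 65.8 CPM), smooth muscle-like (53.0 and 74.4 CPM) and oligodendrocyte progenitor-like cells (53.0 and 69.1 CPM) came next and were not told apart. Endothelial-like cells were low, at 12.3 and 17.6 CPM, and neutrophil-like cells held 0 and 3 UMIs. An unnamed cluster led by Cd5l and Apoc1 had 89.3 and 111 CPM.

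Pgf (chr12:85166635-85177790, minus strand), which encodes placental growth factor, a ligand of FLT1 and not of KDR, was highest in smooth muscle-like cells, named from Acta2, Tagln and Myh11. Their level was 181 CPM (137 to 234) in the HDAC3 inhibitor library and 197 CPM (148 to 258) in the vehicle library, and 69.4% and 79.3% of these cells had a UMI. No neutrophil-like cell did: 0 UMIs in 166 and 200 cells. Astrocyte-like cells (46.4 and 104 CPM, from 9 and 6 UMIs), fibroblast-like cells (41.7 and 31.1 CPM) and pericyte-like cells (43.9 and 21.8 CPM) were lower than smooth muscle-like cells in both libraries. Macrophage-like cells held 1 and 2 Pgf UMIs, so the class with most of the Vegfa UMIs had next to no Pgf.

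Vegfc (chr8:54077606-54187096, plus strand), the gene of the FLT4 ligand known from lymphatic growth, was found in endothelial-like cells at 49.1 CPM (42.9 to 55.98) in the HDAC3 inhibitor library and 55.8 CPM (48.4 to 63.9) in the vehicle library. Endothelial-like cells and the haemoglobin-bearing cluster held 67.8% and 27.7% of its 329 UMIs in the HDAC3 inhibitor library, and 88.4% and 7.30% of its 233 UMIs in the vehicle library. Only 16.3% and 15.2% of endothelial-like cells had a UMI, and 13 and 10 cells carried 50% of the UMIs. No UMI was found in 484 and 238 macrophage-like cells.

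**Figure D2:**
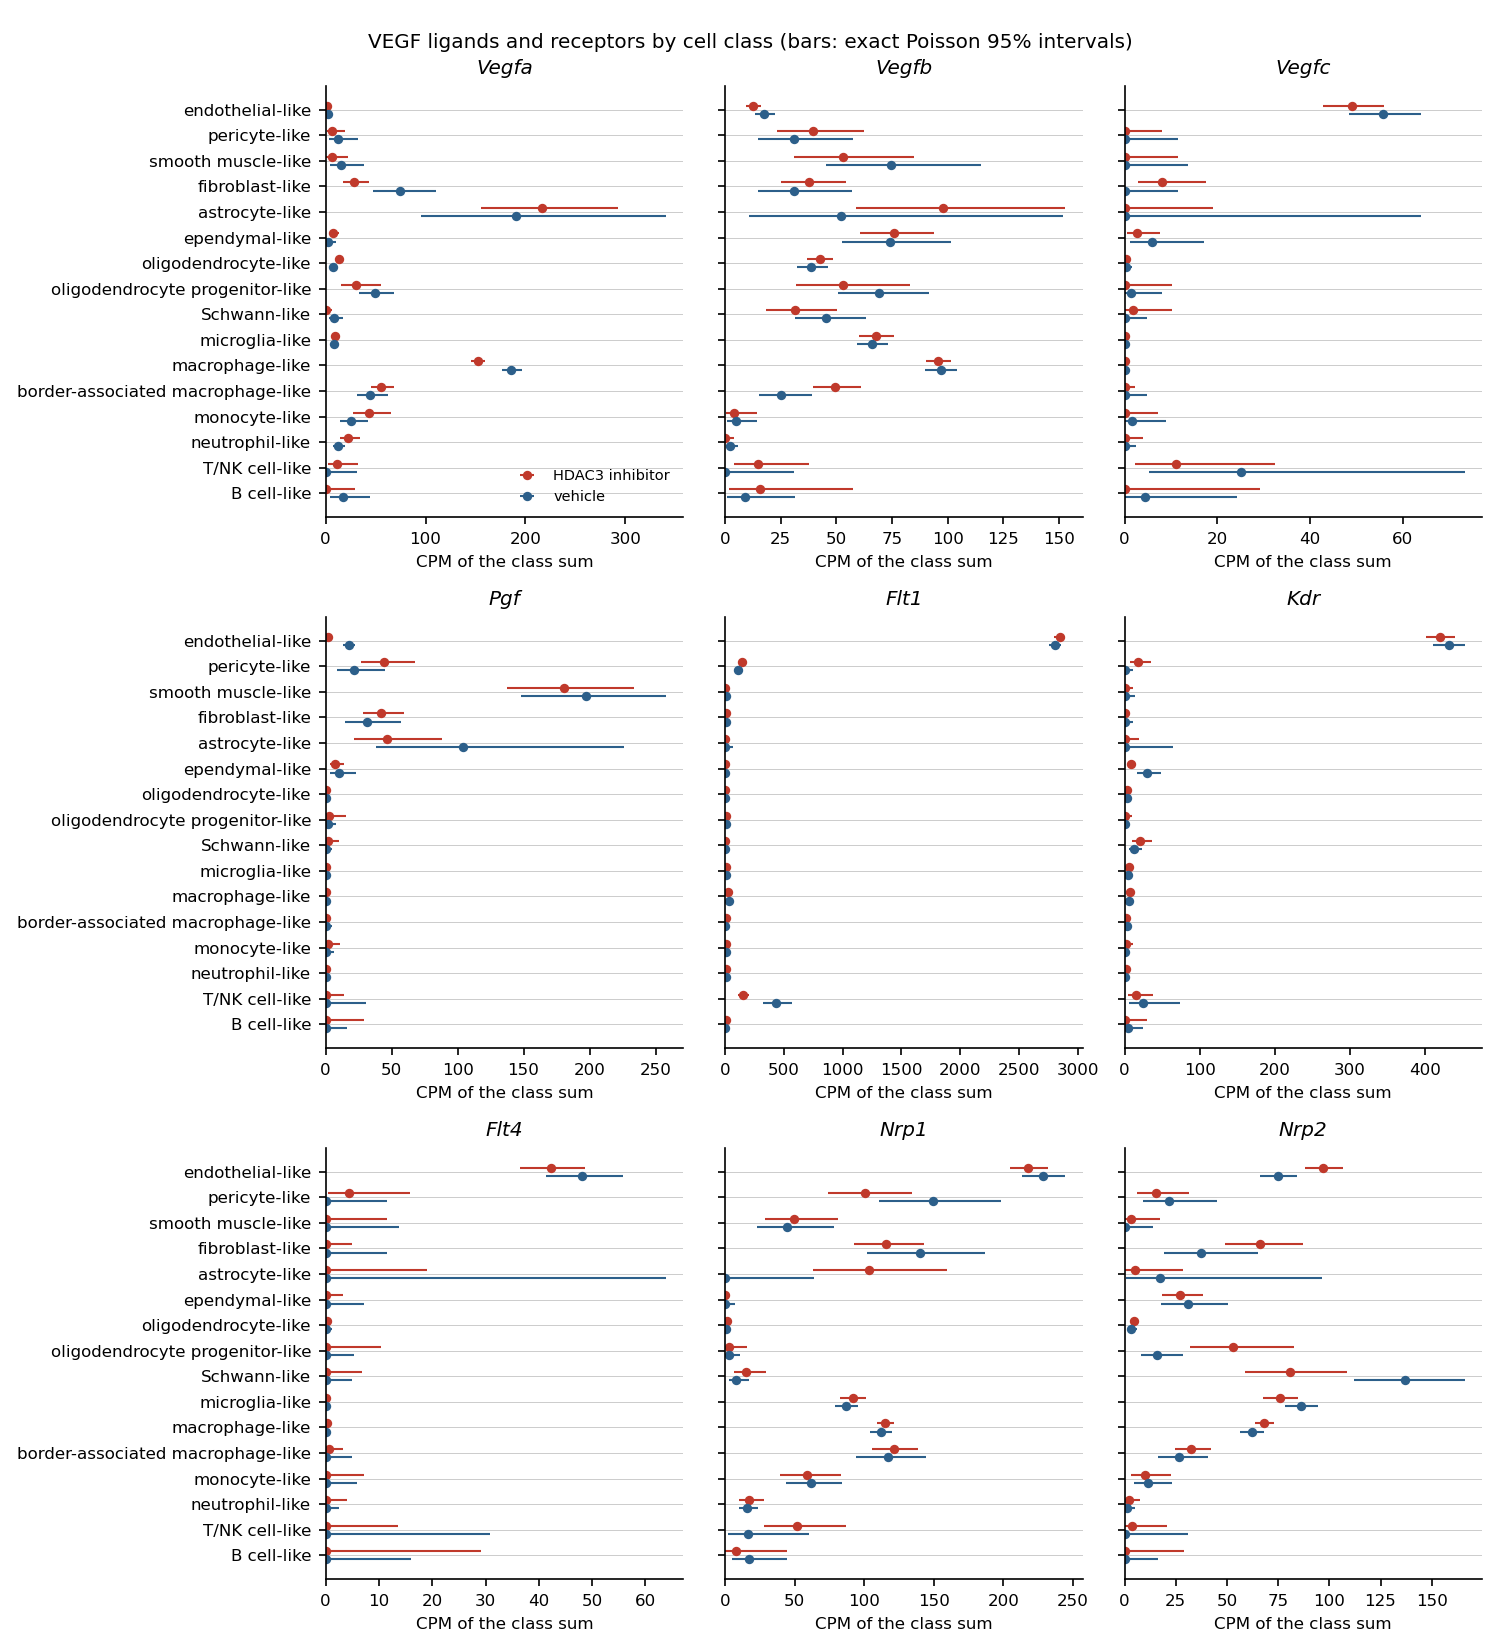
Each panel plots CPM of the class sum (x axis, own scale per gene) for the 16 named classes (y axis), with points for the HDAC3 inhibitor library above those for the vehicle library and bars for exact Poisson 95% intervals. The receptor kinases Flt1, Kdr and Flt4 peak in endothelial-like cells. Nrp1 spreads over vascular, fibroblast-like and several myeloid classes, and Nrp2 is highest in Schwann-like, endothelial-like, microglia-like and macrophage-like cells.

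Among the receptors, the 3 kinases were endothelial. Of all Flt1, Kdr and Flt4 UMIs, endothelial-like cells held 69.7% in the HDAC3 inhibitor library (69.0 to 70.3%) and 80.9% in the vehicle library (80.2 to 81.5%), and the haemoglobin-bearing cluster a further 27.4% and 15.9%. Together these groups held 97.1% and 96.8%.

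Flt1 (chr5:147561604-147726011, minus strand) stood at 2846 CPM (2797 to 2896) in endothelial-like cells of the HDAC3 inhibitor library and 2807 CPM (2753 to 2861) in those of the vehicle library. It was found in 416 of 417 and 309 of 310 cells, with medians of 21 and 24 UMIs per cell and maxima of 191 and 152. Neutrophil-like cells, used for comparison, had a UMI in 2.41% and 5.00% of cells. At 2000 UMIs per cell the shares were 95.6% and 99.0% of endothelial-like cells against 0.694% and 1.54% of neutrophil-like cells. Endothelial-like medians were 7483 and 7702 UMIs and neutrophil-like medians 3607 and 6452.5, and thinning left out 12 and 6 endothelial-like cells and 22 and 5 neutrophil-like cells.

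Flt1 outside endothelial-like cells rested on few cells in some classes. In T/NK cell-like cells all 41 Flt1 UMIs of the HDAC3 inhibitor library and all 52 of the vehicle library came from 1 cell each, and both cells also held Cldn5, the tight junction gene of endothelium. In pericyte-like cells (140 and 112 CPM) 1 cell held 41 of 64 UMIs in the HDAC3 inhibitor library and 1 held 19 of 36 in the vehicle library. The pericyte-like Flt1 UMIs in cells without Cldn5 came to 22 and 17.

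Macrophage-like cells were different in this respect. They held 266 Flt1 UMIs in 131 cells in the HDAC3 inhibitor library (21.8 CPM, 19.3 to 24.6) and 206 UMIs in 87 cells in the vehicle library (29.1 CPM, 25.2 to 33.3), with at most 7 and 14 UMIs in a cell. Flt1 UMIs per Cldn5 UMI were 5.91 and 7.63 in macrophage-like cells, against 0.478 and 0.402 in endothelial-like cells. Other classes also differed from endothelial-like cells, some above, such as microglia-like (1.61 and 0.9) and neutrophil-like cells (0.8 and 1.67). Some lay below, such as oligodendrocyte-like cells (0.368 and 0.267). Where the macrophage-like Flt1 UMIs came from was not tested. The 12 endothelial markers summed to 20.97 and 20.04 CPM in macrophage-like cells. At 2000 UMIs per cell 4.14% and 5.04% of macrophage-like cells had an Flt1 UMI.

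Kdr (chr5:75932827-75978458, minus strand) was found at 421 CPM (402 to 440) in endothelial-like cells of the HDAC3 inhibitor library and 431 CPM (411 to 453) in those of the vehicle library, in 86.8% and 90.6% of cells. All other named classes were at or below 29.2 CPM. The next were Schwann-like cells (20.3 and 12.0 CPM, 11 and 9 UMIs), ependymal-like cells (7.85 and 29.2 CPM, 9 and 15 UMIs) and T/NK cell-like cells (14.8 and 25.1 CPM, from 1 cell each). At 2000 UMIs, 51.4% and 51.6% of endothelial-like cells had a UMI of both Flt1 and Kdr, and 2 and 1 cells had Kdr without Flt1.

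Flt4 (chr11:49609263-49652739, plus strand), best known as the receptor gene of lymphatic endothelium, was nearly absent outside endothelium. Endothelial-like cells had 42.3 CPM (36.5 to 48.7) in the HDAC3 inhibitor library and 48.2 CPM (41.4 to 55.8) in the vehicle library. Outside these cells and the haemoglobin-bearing cluster there were 6 of 276 UMIs in the HDAC3 inhibitor library, 2 of them in a single pericyte-like cell, and 0 of 209 in the vehicle library.

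The neuropilins had no such limit. Nrp1 (chr8:128358604-128503363, plus strand) was highest in endothelial-like cells, at 218 CPM (205 to 232) in the HDAC3 inhibitor library and 229 CPM (214 to 245) in the vehicle library. Fibroblast-like (116 and 140 CPM), pericyte-like (101 and 150 CPM), border-associated macrophage-like (121 and 117 CPM) and macrophage-like cells (115 and 112 CPM) followed, then microglia-like cells (91.7 and 86.8 CPM). Macrophage-like cells held 36.1% and 29.3% of all Nrp1 UMIs, against 25.4% and 31.1% in endothelial-like cells. Ependymal-like cells held none in 185 and 72 cells, and neutrophil-like cells were at 17.1 and 16.1 CPM. Astrocyte-like cells had 103 CPM (63.0 to 159) from 20 UMIs in the HDAC3 inhibitor library and no UMI in the 13 cells of the vehicle library, where the interval reaches 63.9 CPM.

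Nrp2 (chr1:62703285-62818695, plus strand), the neuropilin gene whose product works with FLT4 and binds semaphorin 3F, stood in Schwann-like cells at 81.0 CPM (58.9 to 109) in the HDAC3 inhibitor library and 137 CPM (112 to 166) in the vehicle library, the highest mean of both libraries. Endothelial-like (97.1 and 74.7 CPM), microglia-like (75.8 and 86.3 CPM), macrophage-like (68.2 and 62.1 CPM) and fibroblast-like cells (66.0 and 37.3 CPM) followed. The values of Schwann-like, endothelial-like and microglia-like cells overlapped between the libraries, so their order was not settled. Macrophage-like cells held 833 Nrp2 UMIs in the HDAC3 inhibitor library and microglia-like cells 324, against 441 in endothelial-like cells. In the vehicle library these were 440, 452 and 276, so most Nrp2 transcripts counted were outside endothelium. At 2000 UMIs, 81 of 405 and 65 of 304 endothelial-like cells had a UMI of both Kdr and Nrp1, and 3 and 4 cells one of both Flt4 and Nrp2.

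The genes whose levels over 18 class-by-library sums (9 classes in 2 libraries) most resembled each member were sought among 9329 genes by Pearson correlation of log2(CPM + 5), given here as a description. The points share libraries, and genes of 1 class resemble each other by that alone. The sums leave out smooth muscle-, astrocyte- and fibroblast-like cells, the classes with the highest Pgf levels, so the neighbours of Pgf rest on classes that held less of it. Astrocyte-like cells also had the highest Vegfa level. Flt4 lay closest to Ushbp1 (r = 0.997), then to Sox18 (r = 0.997), an endothelial transcription factor gene, and Degs2 (r = 0.996). Flt1 lay closest to Adgrf5 (r = 0.963), Lef1 (r = 0.957) and Akr1c14 (r = 0.956), Kdr to Hmcn1 (r = 0.958), Myl4 (r = 0.954) and Podxl (r = 0.953), and Vegfc to Alpl (r = 0.992), Tbx1 (r = 0.988) and Ccdc85a (r = 0.982). Vegfa was closest to Cd200r4 (r = 0.913), Hpse (r = 0.905) and Cd36 (r = 0.901), of which Cd36 is in the macrophage marker list. The nearest genes of Pgf were Tnks1bp1 (r = 0.919), Ackr3 (r = 0.913) and Aaed1 (r = 0.912), and those of Vegfb Noc2l (r = 0.918), Impact (r = 0.914) and Slc17a5 (r = 0.911). Nrp1 lay nearest to H2-T22 (r = 0.939), Ifnar2 (r = 0.934) and Ier3 (r = 0.932), and Nrp2 to Mgat4b (r = 0.899), Cdkn1a (r = 0.865) and Serhl (r = 0.857).

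Within endothelium, the members called between arterial-like and other endothelial-like cells were Vegfc, higher in arterial-like cells, and Nrp2, lower. Arterial-like cells were 2 of 9 subclusters, 99 cells in the HDAC3 inhibitor library, against 80 in the vehicle library, in which the arterial marker list, with Gkn3 and Sema3g, scored highest and at least 1 (mean log2 excess over the median subcluster). In the first, led by Mgp, Fbln5 and Gkn3, 90% of cells had a Gkn3 UMI and 97.5% a Sema3g UMI, and in the second 43.2% and 68.3%. The second (73 and 66 cells) was led by the haemoglobin genes Hbb-bt, Hba-a2 and Hba-a1, with Alpl last of its 10 leading genes, so its leading genes are not arterial ones and it was placed by its score of 1.96 alone, against 4.16 in the first. Values without it are therefore given too, an alternative chosen after the data had been seen. The other 7 subclusters held 318 and 230 cells, and in all but one of them at most 12.5% of cells had a Gkn3 UMI; in the subcluster led by Apln 37.9% did. In 1 of the 7, with Filip1l among its leading genes (39 and 35 cells), the arterial list was also the best, at 0.593, and it stayed with the other cells. Ratios below are arterial-like over other endothelial-like cells within a library, and a gene was called where both libraries passed 1.5-fold the same way. Members were left out of the genes used for clustering. The clusters come from the same cells, so these ratios are descriptions.

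Vegfc stood at 173 CPM (150 to 198) in arterial-like cells against 4.78 CPM (2.73 to 7.77) in other endothelial-like cells of the HDAC3 inhibitor library, a ratio of 36.2 (21.7 to 64.5). Vehicle cells had 202 CPM (175 to 231) against 2.22 CPM (0.815 to 4.83), a ratio of 90.8 (41.0 to 250.3). Of the endothelial-like Vegfc UMIs, 207 of 223 and 200 of 206 were in arterial-like cells. The subcluster led by Mgp, Fbln5 and Gkn3 (26 and 14 cells) had 410 and 507 CPM, and 24 of 26 cells in the HDAC3 inhibitor library and 14 of 14 in the vehicle library had a UMI. The subcluster led by haemoglobin genes had 108 and 121 CPM. Without it the ratios were 85.8 (50.4 to 156) and 228 (102 to 637).

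Nrp2 went the other way, at 14.2 CPM (8.28 to 22.7) in arterial-like cells against 127 CPM (115 to 139) in other endothelial-like cells of the HDAC3 inhibitor library, a ratio of 0.112 (0.0647 to 0.182). Vehicle cells had 8.06 CPM (3.48 to 15.9) against 99.2 CPM (87.6 to 112), a ratio of 0.0813 (0.0347 to 0.163). Without the subcluster led by haemoglobin genes, arterial-like cells held 0 Nrp2 UMIs in the HDAC3 inhibitor library (ratio up to 0.114) and 1 in the vehicle library (0.0487, 0.00123 to 0.274). Venous-like cells, named from Ackr1, Slc38a5 and Vwf among others (63 and 35 cells), had the most, 241 CPM (214 to 271) in the HDAC3 inhibitor library and 188 CPM (158 to 222) in the vehicle library. The endothelial-like cells that were neither arterial-like nor venous-like lay between, at 65.2 and 66.0 CPM. Nrp2 thus ran from lowest in arterial-like to highest in venous-like cells in both libraries.

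**Figure D3:**
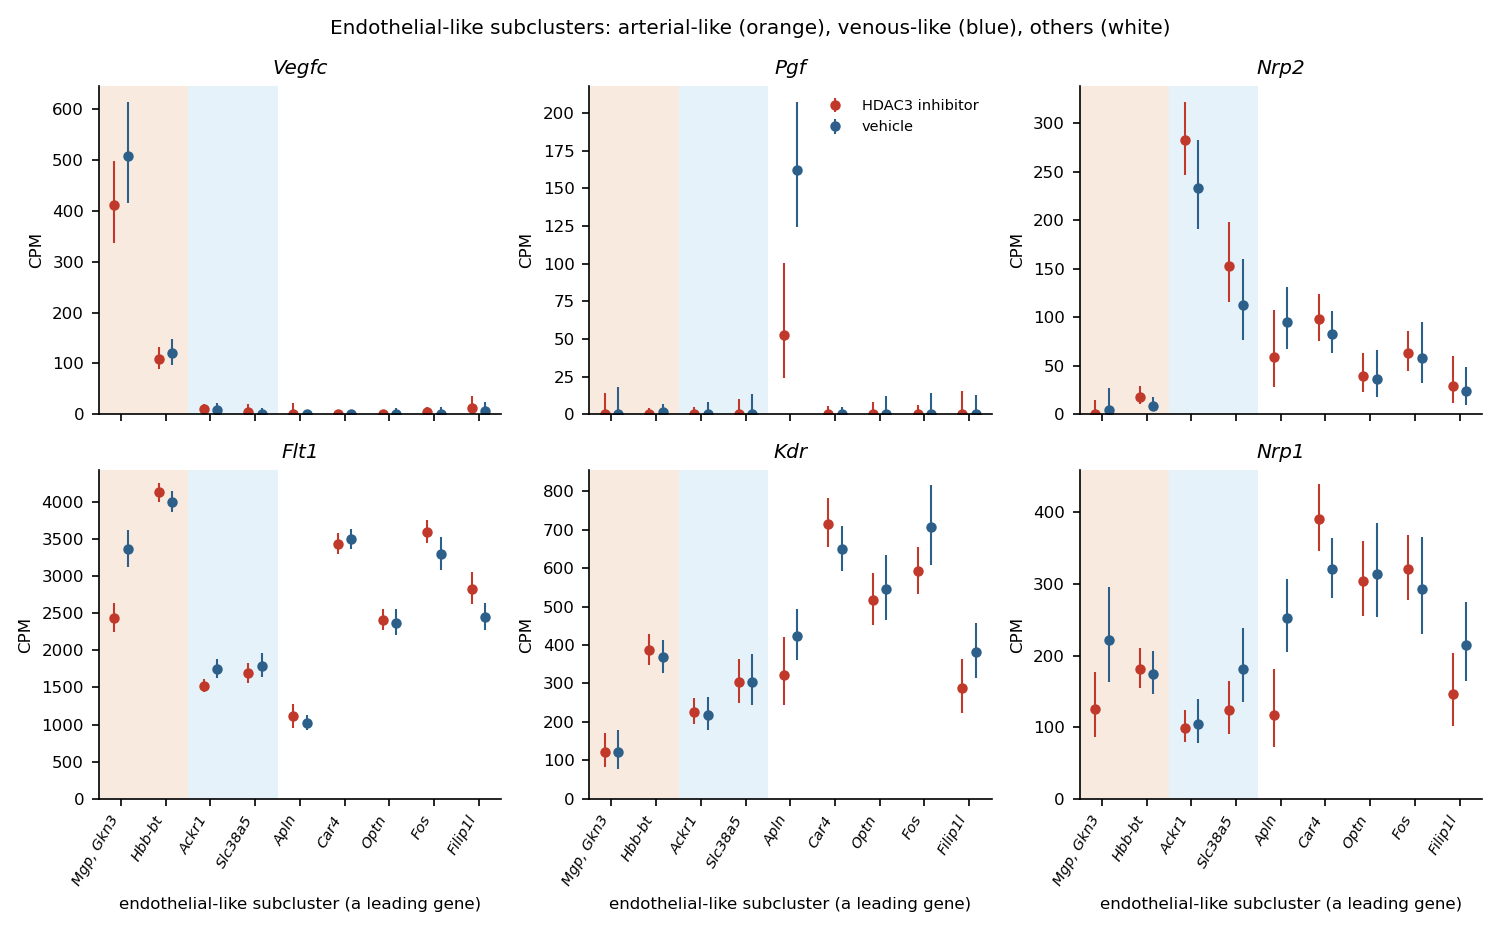
Each panel plots CPM (y axis) in the 9 endothelial-like subclusters (x axis, named by a leading gene), arterial-like on orange, venous-like on blue and the others on white, with the HDAC3 inhibitor library left of the vehicle library and exact Poisson 95% intervals. Vegfc is high in the arterial-like subclusters (the one labelled Hbb-bt is led by haemoglobin genes), Nrp2 in the venous-like ones and Pgf in the one led by Apln.

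The ratios of Flt1, Kdr and Nrp1 lay nearer 1. Flt1 had a higher level in arterial-like cells, at 3765 against 2518 CPM in the HDAC3 inhibitor library and 3871 against 2416 CPM in the vehicle library, with ratios of 1.496 (1.44 to 1.55) and 1.60 (1.54 to 1.67), the first of them just under the 1.5-fold bound. This rested on the subcluster led by haemoglobin genes in the HDAC3 inhibitor library, as the ratios without it were 0.967 (0.890 to 1.05) and 1.39 (1.29 to 1.51). Kdr was lower in arterial-like cells, at 330 against 453 CPM and 316 against 474 CPM, with ratios of 0.729 (0.651 to 0.815) and 0.668 (0.589 to 0.756), and without that subcluster 0.268 (0.181 to 0.381) and 0.255 (0.164 to 0.378). Nrp1 had ratios of 0.717 (0.611 to 0.837) and 0.753 (0.636 to 0.888), or 0.531 (0.361 to 0.756) and 0.907 (0.658 to 1.22) without that subcluster. The ratios of Flt4, 0.783 and 0.867, and Vegfb, 0.683 and 0.889, had intervals that hold 1. So 7 of 9 members had at least 50 UMIs in each library, summed over arterial-like and other endothelial-like cells, and 2 were called, 1 higher and 1 lower. Vegfc reached this sum through arterial-like cells alone, and Nrp2 through the other endothelial-like cells alone. Of the 7101 genes that passed the same filter, 9.11% were called, 5.21% higher and 3.9% lower. Without the subcluster led by haemoglobin genes 6 members passed the filter and 3 were called, Vegfc higher and Kdr and Nrp2 lower, where 17% of 6354 genes were called. With doublets kept 4 members were called, and the log2 ratios of Kdr were then -0.86 and -0.88. The share of all genes called was not computed with doublets kept.

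Within both groups the receptors varied by subcluster. Venous-like cells had 1578 and 1767 CPM of Flt1 and 251 CPM of Kdr in each library. The arterial-like subcluster led by Mgp had 121 CPM of Kdr in both libraries, the lowest of the 9 subclusters, while the subcluster with Car4 and Ndnf among its leading genes had 716 and 649 CPM. Haemoglobin genes took 0.601% and 0.574% of UMIs in the arterial-like subclusters and at most 0.106% in the others. Leaving those genes, with mitochondrial and ribosomal ones, out of the totals left 2 members called, a setting in which the share of all genes called was not computed.

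The pathway lists are set beside the 9.11% of all genes called in this contrast. Of 12 genes known to be induced by VEGF or to mark tip cells, the leading cells of sprouts, 10 passed the filter. Unc5b (4.76 and 4.26) and Nrarp (1.75 and 1.91), a Notch target, were called higher in arterial-like cells, and Apln, Angpt2 and Adm lower. Apln, a tip cell peptide gene, had 1 UMI against 52 in the HDAC3 inhibitor library and 0 against 110 in the vehicle library. Of 24 signal carriers downstream of the receptors 21 passed and 2 were called, Sos1 (1.74 and 2.44) and Mapk3 (1.60 and 1.63), both higher. Of 12 semaphorins and plexins, partners of the neuropilins, 4 passed and 2 were called, Sema3c (1.67 and 1.501) and Sema3g (20.9 and 22.0, itself an arterial marker), both higher. Of 16 HIF regulators and hypoxia genes 14 passed, with Epas1 (1.81 and 1.94) called higher and Ankrd37 (0.265 and 0.309) lower. Of 12 other VEGF family, release and binding genes 4 passed, and Ctgf (0.263 and 0.158) was called lower. Of the list genes with the most UMIs that were not called, Dll4, the Notch ligand gene of tip cells, had ratios of 1.36 and 1.87, Plaur 0.770 and 0.715, Hspb1 1.28 and 1.17, Ptprb 1.01 and 0.968, Cdc42 1.03 and 1.01, and Rac1 1.12 and 1.09. Plxna2 had 1.29 and 1.17, Plxnd1 0.893 and 0.809, Slc2a1 1.19 and 1.29, Ndrg1 1.05 and 1.13, Ldha 0.79997 and 0.948, Ramp2 0.846 and 0.833, Plat 1.49 and 1.35, and Hspg2 1.17 and 1.004. The median log2 ratios of the 5 lists lay between -0.13 and 0.55, beside 0.07 and 0.05 over all genes.

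Pgf in endothelium sat in a few cells of one subcluster. In the subcluster led by Apln, with Kit, Angpt2 and Cxcr4 (12 cells in the HDAC3 inhibitor library, against 17 in the vehicle library), Pgf stood at 52.9 CPM (24.2 to 100.3) and 162 CPM (125 to 207). That is 9 UMIs in 2 cells and 63 UMIs in 4 cells, out of 9 and 64 in all endothelial-like cells. The same subcluster had the lowest Flt1 of the 9, at 1110 CPM (957 to 1280) and 1027 CPM (929 to 1133).

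Between the libraries the levels of the receptor genes in endothelial-like cells lay within 1.5-fold. Ratios are HDAC3 inhibitor over vehicle library. They were computed in the 9 classes that had 50 cells or more per library, and members whose UMIs summed over both libraries to 50 or more were compared. A member could reach this sum through 1 library alone, and each member called below did so through the library where it was high. A member was called at 1.5-fold or more either way. Flt1 in endothelial-like cells had a ratio of 1.01 (0.988 to 1.04), Kdr 0.975 (0.912 to 1.04), Nrp1 0.953 (0.869 to 1.05), Flt4 0.877 (0.712 to 1.08) and Vegfc 0.881 (0.725 to 1.07). Nrp2 was at 1.30 (1.12 to 1.52), within the 1.5-fold bound with an interval above 1. Of 8 members compared in endothelial-like cells 1 was called, Pgf, lower. Of all 9082 genes compared there 4.44% were called, 2.26% lower.

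The Pgf level in endothelial-like cells was 1.98 CPM (0.906 to 3.76) in the HDAC3 inhibitor library against 17.3 CPM (13.3 to 22.1) in the vehicle library, a ratio of 0.114 (0.05 to 0.231). It rested on 2 and 5 cells, and single cells held 7 of 9 and 29 of 64 UMIs. With the haemoglobin-bearing cluster, which had 19 and 0 Pgf UMIs, joined to endothelial-like cells, the log2 ratio was -1.70 instead of -3.13. Without the cell with the most Pgf UMIs in each library it was -4.42. Counting intervals do not cover how such cells are drawn, so the value describes a handful of cells. In smooth muscle-like cells, the class with the highest level of Pgf, the libraries had 58 and 53 UMIs; the class has under 50 cells per library and was not compared.

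Vegfa in macrophage-like cells, which held most of its counted UMIs, had a ratio of 0.818 (0.761 to 0.878), with an interval below 1 and within the 1.5-fold bound. It was lower in the HDAC3 inhibitor library in each of 4 macrophage-like subclusters. The subcluster led by Cxcl9 and Cxcl10 had 131 CPM (120 to 143) in the HDAC3 inhibitor library against 191 CPM (175 to 208) in the vehicle library. That led by S100a4 had 166 against 197 CPM, that led by Mfge8 and Mmp12 166 against 185 CPM, and that led by Gm42418 84.7 against 108 CPM. The last 2 pairs have overlapping intervals. Macrophage-like cells were 16.5% of cells in the HDAC3 inhibitor library, against 11.1% in the vehicle library, and whether this share bears on the level was not tested.

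Flt1 in macrophage-like cells was also lower in the HDAC3 inhibitor library, with a ratio of 0.750 (0.623 to 0.904). Vegfb (0.990, 0.900 to 1.09), Nrp1 (1.03, 0.941 to 1.12), Nrp2 (1.10, 0.978 to 1.24) and Kdr (1.15, 0.790 to 1.69) had intervals that hold 1. Of 6 members compared in this class 0 were called, where 5.05% of 9148 genes were. Of 5 compared in microglia-like cells 0 were called (background 4.92%), of 2 in pericyte-like cells 0 (11.7%) and of 1 in ependymal-like cells 0 (8.97%). No member reached 50 UMIs in neutrophil-like cells (12.4%).

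The remaining calls were in glial and border-associated cells. In oligodendrocyte-like cells Vegfa had 13.9 CPM (10.7 to 17.6) in the HDAC3 inhibitor library against 7.32 CPM (4.69 to 10.9) in the vehicle library, a ratio of 1.90 (1.17 to 3.16), from 67 UMIs in 46 cells and 24 UMIs in 21 cells. It was 1 of 2 members compared there, where 4.33% of genes were called, 2.4% higher. At 2000 UMIs per cell 2.96% and 1.56% of oligodendrocyte-like cells had a Vegfa UMI, against 0% and 2.70% of B cell-like cells. These Vegfa levels were therefore not shown to lie above the background set by B cell-like cells. In Schwann-like cells Nrp2 had a ratio of 0.591 (0.405 to 0.849), from 44 and 103 UMIs, and was 1 of 2 compared, where 10.1% of genes were called, 5.2% lower. In border-associated macrophage-like cells Vegfb had 49.3 against 25.1 CPM, a ratio of 1.97 (1.19 to 3.43) from 85 and 19 UMIs, and was 1 of 4 compared, where 12.7% of genes were called, 8.44% higher. This class was led by the MHC class II genes H2-Eb1, H2-Aa and H2-Ab1 and also held Prss34 and Mcpt8, known from basophils. Its Vegfb log2 ratio was 0.98, but 0.43 with doublets kept and -0.40 with each cell thinned to 2000 UMIs, so the call and its direction were not kept. In all, 30 of 81 pairs of member and class were compared and 4 were called, 2 higher and 2 lower. By the same rule 4.33% to 12.7% of all genes were called per class, so so few calls are not read as a result about the members.

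**Figure D4:**
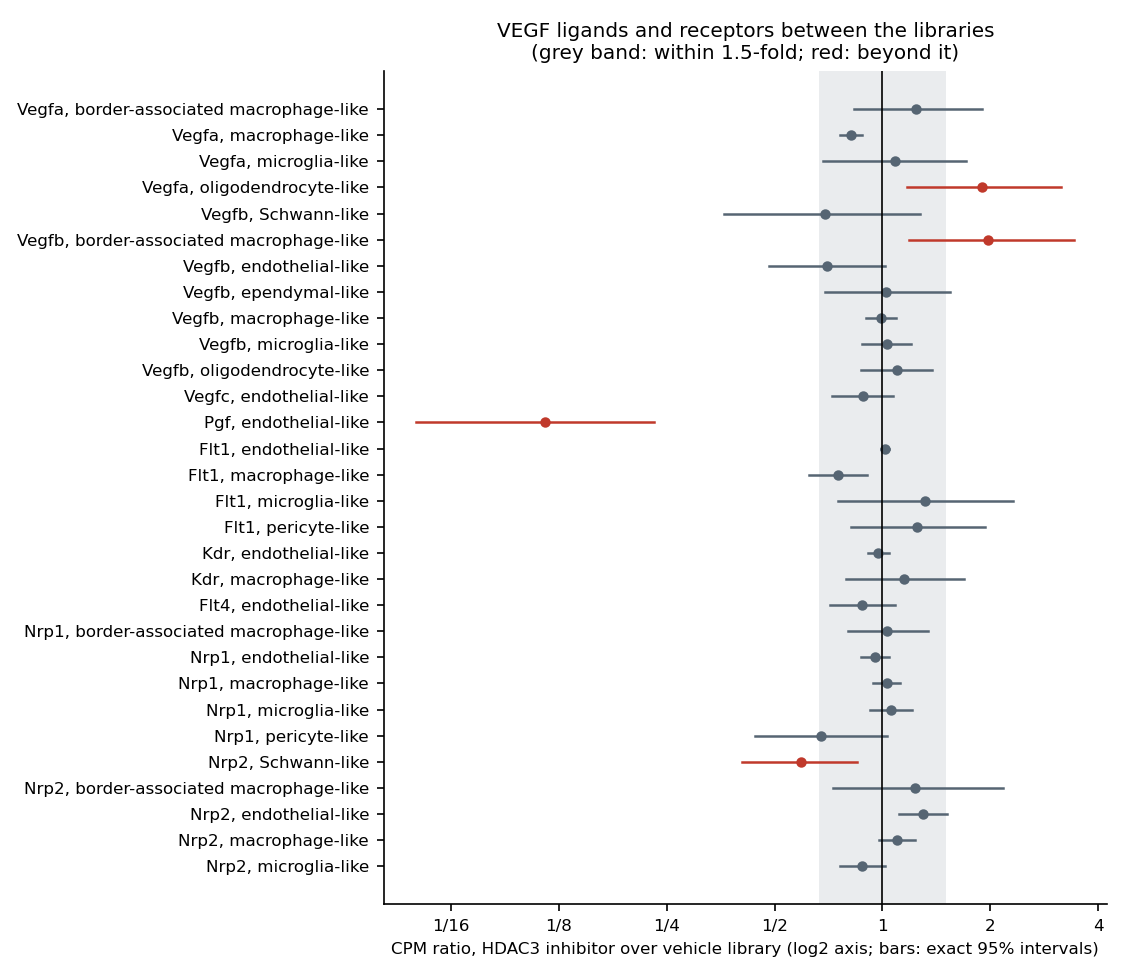
Points give the CPM ratio, HDAC3 inhibitor over vehicle library (log2 x axis), for the 30 compared pairs of gene and cell class (y axis), with exact conditional binomial 95% intervals. The grey band marks ratios within 1.5-fold, and the 4 ratios beyond it are red, with Pgf in endothelial-like cells farthest out at 0.114.

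The pathway lists in endothelial-like cells are set beside the 4.44% of 9082 genes called there. Of 10 VEGF-induced and tip cell genes that passed the filter, Apln was called, lower, at 11.7 CPM in the HDAC3 inhibitor library against 29.8 CPM in the vehicle library (0.392, 0.277 to 0.549), and Adm (0.863), Dll4 (0.832), Unc5b (0.930) and Plaur (1.42) were not. Apln marks the same small subcluster that held Pgf, with 12 and 17 cells. Of 22 signal carriers 0 were called, among them Hspb1 (0.809), Ptprb (0.980), Cdc42 (0.969) and Rac1 (1.05). Of 5 semaphorins and plexins 0 were called, with Sema3c at 1.09, Plxna2 at 1.06, Plxnd1 at 0.947 and Sema3g at 1.15. Of 14 HIF regulators and hypoxia genes 0 were called, with Slc2a1 at 1.002, Epas1 at 0.882, Ndrg1 at 1.12 and Ldha at 1.07. Of 5 other VEGF family, release and binding genes Plat, which encodes tissue plasminogen activator, was called lower (0.646, 0.592 to 0.706), and Ramp2 (1.10), Hspg2 (0.914) and Ctgf (0.947) were not. The median log2 ratios of the lists lay between -0.08 and 0.11, against 0.00 over all genes.

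In macrophage-like cells, where 5.05% of 9148 genes were called, all 16 HIF regulators and hypoxia genes passed the filter, and 1, Bnip3, a mitophagy gene, was called, higher (32.7 against 18.5 CPM, 1.77, 1.45 to 2.17). Ldha (1.22), Pgk1 (1.198), Hif1a (1.17) and P4ha1 (1.29) had ratios above 1 with intervals that do not hold 1, but within the 1.5-fold bound. Of the 16, 10 had ratios above 1 and 6 below, with a median log2 ratio of 0.15, beside 0.02 over all genes. The ratio of Vegfa, a known target of HIF, lay below 1, and a link between Vegfa and these genes was not tested. Of 3 VEGF-induced genes compared Angpt2 was called higher, from 37 and 14 UMIs, and Plaur (0.840) and Rcan1 (1.22) were not. The Angpt2 ratio of 1.53 had an interval that holds 1 (0.810 to 3.07). Of 17 signal carriers 0 were called, with Cdc42 at 1.09, Grb2 at 1.03, Rac1 at 0.971 and Mapk3 at 0.875. Plxna2 was called lower (0.601, from 30 and 29 UMIs) of 3 semaphorins and plexins, beside Plxnd1 (0.991) and Plxna1 (1.16). The Plxna2 interval, 0.348 to 1.04, also holds 1. Gpc1 was called higher (1.53, 1.02 to 2.32, from 92 and 35 UMIs) of 3 other family, release and binding genes, beside Thbs1 (0.963) and Plau (1.11).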

How the data were processed

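The deposited matrices hold UMI counts per gene and cell barcode, and the file headers give Cell Ranger 3.0.2 as the software. The submitters' processing notes name Cell Ranger, Seurat and the build mm10. Per the labels, the libraries were made with the 10x 3' version 3 kit.

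Barcodes were kept when they had 500 or more genes, 1000 or more UMIs and no more than 15% mitochondrial UMIs. This left out 448 of 3423 in the HDAC3 inhibitor library and 353 of 2523 in the vehicle library. Scrublet (scanpy 1.11.5) at its automatic threshold marked 0.447% of cells, too few to have worked, so a score above 0.15 was used, which removed 35 and 32. The 2000 most variable genes without the 9 members were reduced to 30 principal components, joined over 20 neighbours (scikit-learn 1.9.0) and grouped by Leiden at resolution 1 (leidenalg 0.10.2, igraph 0.11.9). Each cluster was named by its best marker list, scored as mean log2 excess over the median cluster (2.5 or more, and 0.5 or more above the next). Clusters with erythroid genes beside another class stayed unnamed. So did those with none of their own markers on top and a second list that also scored 2.5 or more. These thresholds, the rule for naming endothelial subclusters and the doublet score were set after clusters had been seen. The members, lists and comparisons were chosen with earlier results of these data known.

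UMIs were summed per class and library, and ratios and intervals were computed with scipy 1.17.1; cells of 1 library are not replicates. The ratio step was tested on simulated data. Named genes are the 9 members, of each list the 4 with the most UMIs in the class plus every called one, and the 3 most similar genes per member. Promoters are from RefSeq, with all 9 members matched.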

Additional observations from a re-analysis of the deposited data

How the results depend on the processing

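No paired analysis was possible because each group is 1 library, and for the same reason no library could be left out. The count of members called between the libraries, 4 in the main analysis, was 7 with classes from own markers, 1 with cells thinned to 2000 UMIs, 7 with each cell weighted alike, 8 at a minimum of 20 UMIs, 29 with no minimum and 11 at a lower fold bound. The arterial-like count, 2, was 4 with doublets kept, 0 after thinning, which leaves fewer genes past 50 UMIs, 4 with no minimum and 5 at a lower fold bound. The share of all genes called was not computed under these settings, so these counts are not read as a result about the members. The share of Flt1, Kdr and Flt4 UMIs in endothelial-like cells was, in the HDAC3 inhibitor library, 71.4% under the stricter cell filter, 66.6% with classes from own markers, 79.8% after thinning and 97.1% with the haemoglobin-bearing cluster joined. In the vehicle library it was 79.6% with doublets kept, and 77.5%, 89.4% and 96.8% under the last 3. The Vegfa share in myeloid classes was 86.2% and 87.8% with classes from own markers and 82.7% and 84.7% after thinning. In the vehicle library it was also 92.4% under the stricter filter, 91.5% with doublets kept and 92.0% at resolution 2. The causes were not tested.

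Of 299 values of the member ratios between libraries under the alternatives, 277 stayed within the counting interval, 21 left it and, among called members, 1 turned direction, Vegfb in border-associated macrophage-like cells at -0.40 (log2) after thinning. Ratios of uncalled members also crossed 1, 34 times in 16 of the 30 ratios, such as Flt1 in pericyte-like cells (0.450 to 3.87). Of 167 arterial-like values 118 stayed, 49 left and 0 turned direction among called members, and uncalled ones crossed 1 in 4 cases. The Vegfa ratio in macrophage-like cells ranged over 0.801 to 0.830, the Nrp2 ratio in Schwann-like cells over 0.552 to 0.654, and the Vegfa ratio in oligodendrocyte-like cells over 1.81 to 2.06. Arterial-like Vegfc ratios were 22.9 to 85.8 and 28.1 to 228.5, and those of Nrp2 0.0570 to 0.375 and 0.0487 to 0.507 where both groups held UMIs. Pgf in endothelial-like cells gave no ratio after thinning. Joining the haemoglobin-bearing cluster, leaving out the arterial-like subcluster led by haemoglobin genes, leaving out the cell with the most UMIs of a gene and subclustering at resolution 0.5 were chosen after the data had been seen. Limits for a count of 0 are the upper ends of exact intervals.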
